A study of Arabidopsis thaliana with 12 samples.

Results

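The SAUR (SMALL AUXIN UP RNA) family was followed in Arabidopsis thaliana dcl1 mutants and wild type (WT). Its members were taken as the genes whose description in the deposited expression table contains the word SAUR, which gave 72 of 24730 genes. The rule used names and no measured value, and all 72 carry a SAUR number among the symbols or synonyms of RefSeq. Poly(A) RNA was sequenced as an input fraction and after m6A immunoprecipitation, with 3 biological replicates of each per genotype by the series design, 12 libraries in all. The dcl1 group is a mutant of DCL1, which codes for the RNase that releases microRNAs from longer precursors, in the Col-0 ecotype. Its allele is not named in the labels. The WT group is unmutated Col-0, and neither group received a special treatment. The labels call both groups leaf of 20 days, whereas the protocol speaks of seedlings, so the sampled organ is not settled by the labels.

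SAUR genes encode short plant proteins, and many of them are switched on within minutes of an auxin stimulus. SAUR19 and its relatives bind and inhibit PP2C.D phosphatases, which keeps the plasma membrane proton pumps phosphorylated and active. The acidified wall then yields, and the cell expands; SAURs are best known for this acid growth of hypocotyls, cotyledons and leaves. Auxin response factors (ARFs), PIF factors and the brassinosteroid factor BZR1 are known to act on SAUR promoters. Many family members lie side by side as tandem copies.

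The DCL1 transcript itself had levels of 0.604, 0.406 and 0.632 FPKM in dcl1, against 5.08, 4.53 and 5.996 FPKM in WT. FPKM are fragments scaled by transcript length and library total. The level was 9.51-fold lower in dcl1 (limma, log2 change -2.0, SE 0.12, adjusted p = 1.07e-04), and the groups did not overlap. Summed FPKM per library ran between 616106 and 622995, and 17453 to 17908 genes exceeded 1 FPKM. The depth behind FPKM is unknown. Genes of the chloroplast genome held 0.774% of all FPKM in dcl1 replicate 1 and 0.0925% to 0.192% in the other libraries. On the first principal component, WT replicate 3 (-26.1) lay nearer to dcl1 than WT replicates 1 (-41.1) and 2 (-42.8). Replicate 1 of dcl1 (28.85) likewise lay nearer to WT than dcl1 replicates 2 (36.96) and 3 (44.14). The 4 leaf markers RBCS1A, RCA, CAB1 and CAB3 summed to between 36552 and 40193 FPKM in dcl1 and between 34725 and 39733 FPKM in WT. Within that sum RCA was lower in dcl1 (limma, log2 change -0.41, adjusted p = 0.0092), while CAB1 (0.36, adjusted p = 0.014) and CAB3 (0.37, adjusted p = 0.025) were higher. RBCS1A did not pass (limma, log2 change -0.22, adjusted p = 0.078), but passed as lower without WT replicate 3 (0.0051). The CAB1 call was lost with quantile normalization (0.353) or without WT replicate 1 (0.0548), and the CAB3 call with median-ratio scaling (0.0657) or without dcl1 replicate 1 or WT replicate 1 or 3 (0.0539 to 0.0710). The 3 root markers PLT2, CASP1 and IRT1 summed to at most 0.739 FPKM in dcl1 and 0.501 FPKM in WT. The 3 floral markers AP3, PI and AG summed to between 8.75 and 11.9 FPKM in dcl1 and between 5.08 and 6.36 FPKM in WT. AP3 (limma, log2 change 0.71, adjusted p = 0.019) and PI (0.53, adjusted p = 0.0068) were higher in dcl1. The AP3 call was lost without WT replicate 2 (0.0709). AG averaged under 1 FPKM and was not tested. The part of floral tissue in the SAUR results was not tested.

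Summed over the family, RNA was about 1.92-fold lower in dcl1. The 72 members summed to levels of 418.7, 369.1 and 319.9 FPKM in dcl1, against 761.9, 756.5 and 612.4 FPKM in WT. Every dcl1 library lay below every WT library, and WT replicate 3 was the lowest of its group. The 5 members of highest mean level held between 41.1% and 53.1% of the sum in each library. The other 67 members summed to between 187.2 and 226.8 FPKM in dcl1 and between 287.2 and 422.2 FPKM in WT. The family held 0.0674%, 0.0599% and 0.0519% of all FPKM in dcl1, against 0.123%, 0.121% and 0.0987% in WT. In such bulk samples, fewer cells of a type and less RNA per cell cannot be told apart.

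**Figure D1:**
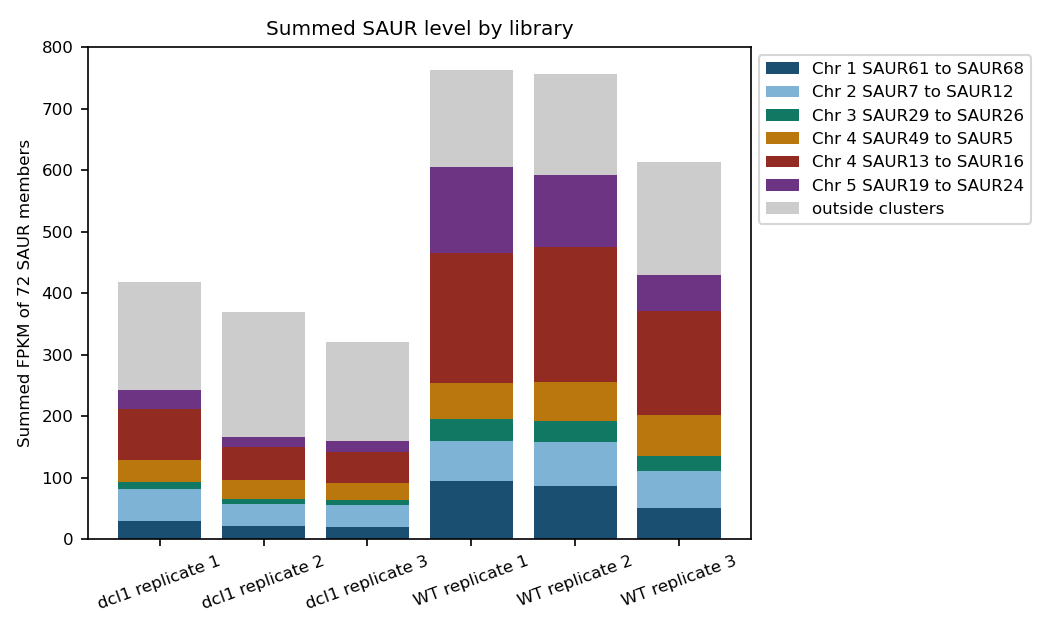
Summed FPKM of the 72 SAUR members in each input library, stacked by tandem cluster, with the 40 members outside clusters in grey. The coloured part is shorter in the dcl1 libraries (160.0 to 242.5 FPKM) than in the WT libraries (429.8 to 604.4 FPKM), while the grey part covers a similar range (159.9 to 202.9 FPKM in dcl1, 157.5 to 182.6 FPKM in WT).

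Of the 72 members, 47 averaged at least 1 FPKM over the 6 input libraries and were tested. In limma with Benjamini-Hochberg adjustment over all 17925 genes tested, 30 of the 47 were lower in dcl1 (63.8%), 6 were higher and 11 passed in neither direction. Of all genes tested, 12.8% were lower in dcl1, 17.8% were higher and 30.6% passed in either direction. The share of SAUR genes that fell was thus far above the background, and the share that rose (12.8% of those tested) was near its background. The median log2 change of the tested SAUR genes was -0.99, beside 0.03 over all genes tested. The 5480 genes called over the whole table became 3217 without WT replicate 1 and 3209 without WT replicate 2, while the SAUR genes called lower numbered between 24 and 31 with any 1 library left out. Of the 30, 23 kept the call under each of these omissions, as did 4 of the 6 higher members.

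Large falls were the commoner kind. Among the SAUR genes, 21 were called with a log2 change of -1 or less, whereas 1.22% of all genes tested (219 genes) were. SAUR genes made up 9.59% of those 219 genes and 0.262% of all genes tested. In the other direction, 2 of the 47 members were called with a log2 change of at least 1, near the background of 4.18% of all genes tested. The 3 dcl1 libraries all lay below the 3 WT libraries for 29 of the 47 tested members and all above them for 8, beside 21.8% and 26.6% of all genes tested. Members of high and of low level both fell: of the 15 tested members averaging at least 10 FPKM, 10 were lower in dcl1, and of the 32 below that level, 20 were. The level minimum kept 5 members with a dcl1 mean under 1 FPKM and none with a WT mean under 1 FPKM, so the tested set leans towards members that are lower in dcl1; of the 42 other tested members, 25 were called lower. Over all 72 members, tested or not, the mean level was lower in dcl1 for 54 and higher for 18.

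**Figure D2:**
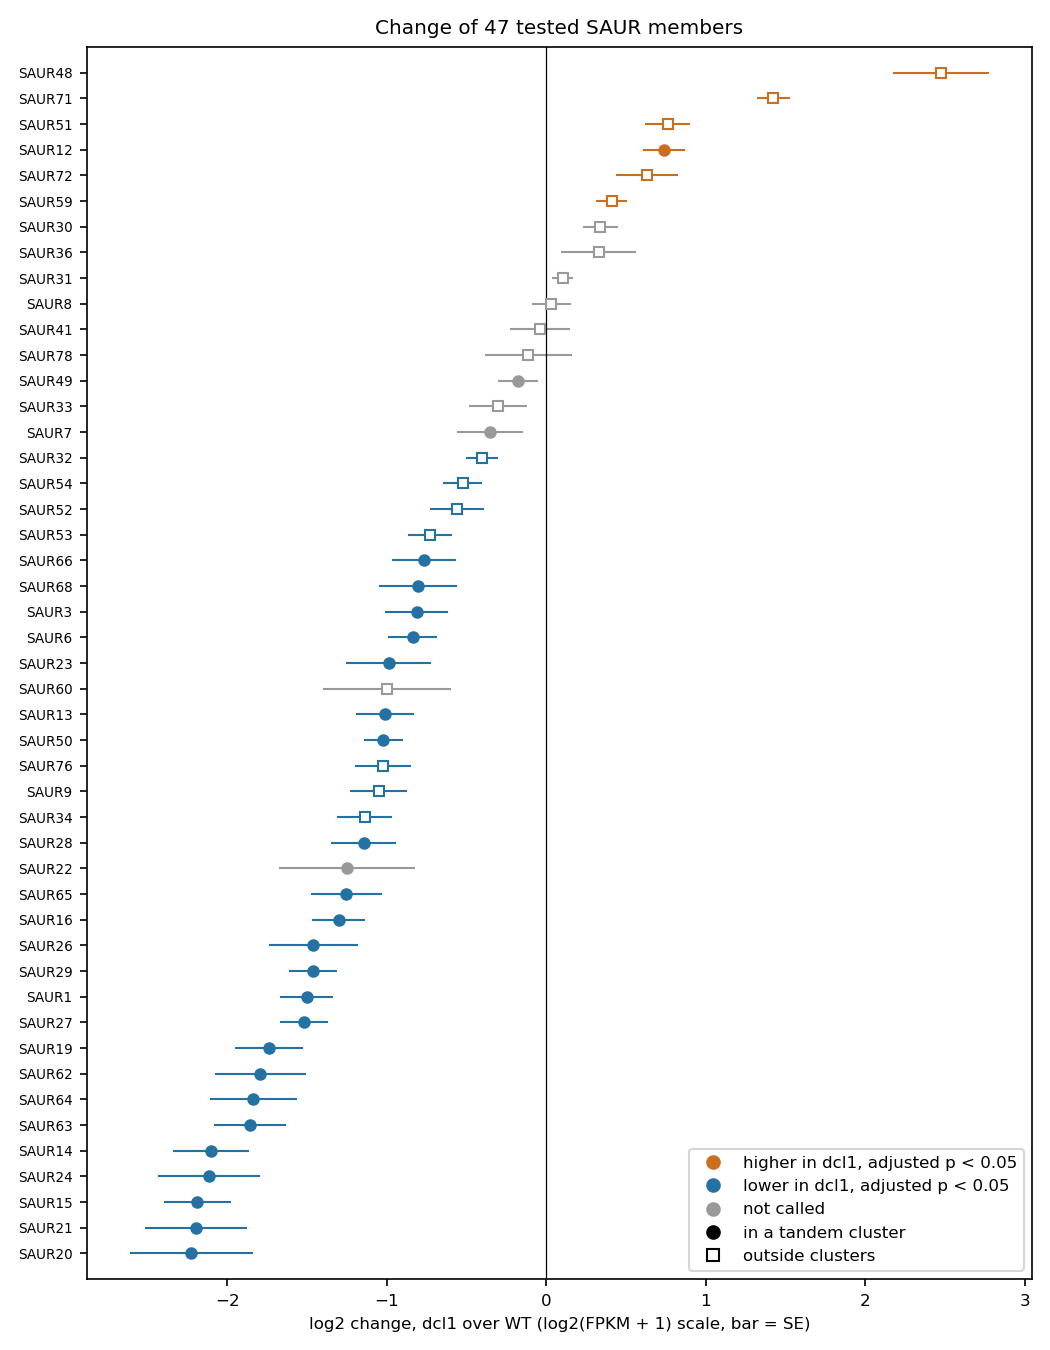
Log2 change of dcl1 over WT for the 47 tested SAUR members, on the log2(FPKM + 1) scale, with bars of 1 SE, circles for members in tandem clusters and squares for members outside them. Changes run between -2.22 for SAUR20 and 2.48 for SAUR48, and the lower end holds mostly cluster members.

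The family is short and mostly of 1 transcript per gene: 70 of 72 members had a single annotated transcript. Their median locus length was 622 bases, against 2036 bases over all genes, and 68 members were shorter than 1000 bases. They lie on chromosomes 1 to 5 with 19, 11, 11, 18 and 13 members. In the deposited annotation, 54 members (75%) carried the Gene Ontology term response to auxin, which 0.922% of all genes carry. The term mitochondrion was given to 39 members (54.2%) and to 14.6% of all genes. The term extrinsic component of plasma membrane was given to 5 members (6.94%) and to 0.0323% of all genes. Positive regulation of cell growth was also given to 5 members, and to 0.0526% of all genes. Where the proteins lie was not tested.

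Much of the family stands in tandem. With members counted as neighbours where their starts lay at most 20 kb apart, 6 clusters of at least 3 members held 32 members, of which 27 were tested. In the clusters, 23 of the 27 tested members were lower in dcl1 (85.2%), 1 was higher and 3 passed in neither direction, with a median log2 change of -1.30. Outside the clusters, 7 of 20 tested members were lower in dcl1 (35.0%), 5 were higher and 8 passed in neither direction, with a median log2 change of -0.08. The difference between these shares was not tested, since neighbouring copies are not independent. In the clusters, SAUR19, SAUR28, SAUR13 and SAUR3 averaged under 1 FPKM in dcl1, as did SAUR34 outside them. These genes were tested because of their WT level, so both shares lean towards members lower in dcl1. In summed level, cluster members held 242.5, 166.2 and 160.0 FPKM in dcl1, against 604.4, 591.8 and 429.8 FPKM in WT, a 2.86-fold lower mean in dcl1. The other 40 members held 176.2, 202.9 and 159.9 FPKM in dcl1, against 157.5, 164.7 and 182.6 FPKM in WT. In that sum the groups overlapped.

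**Figure D3:**
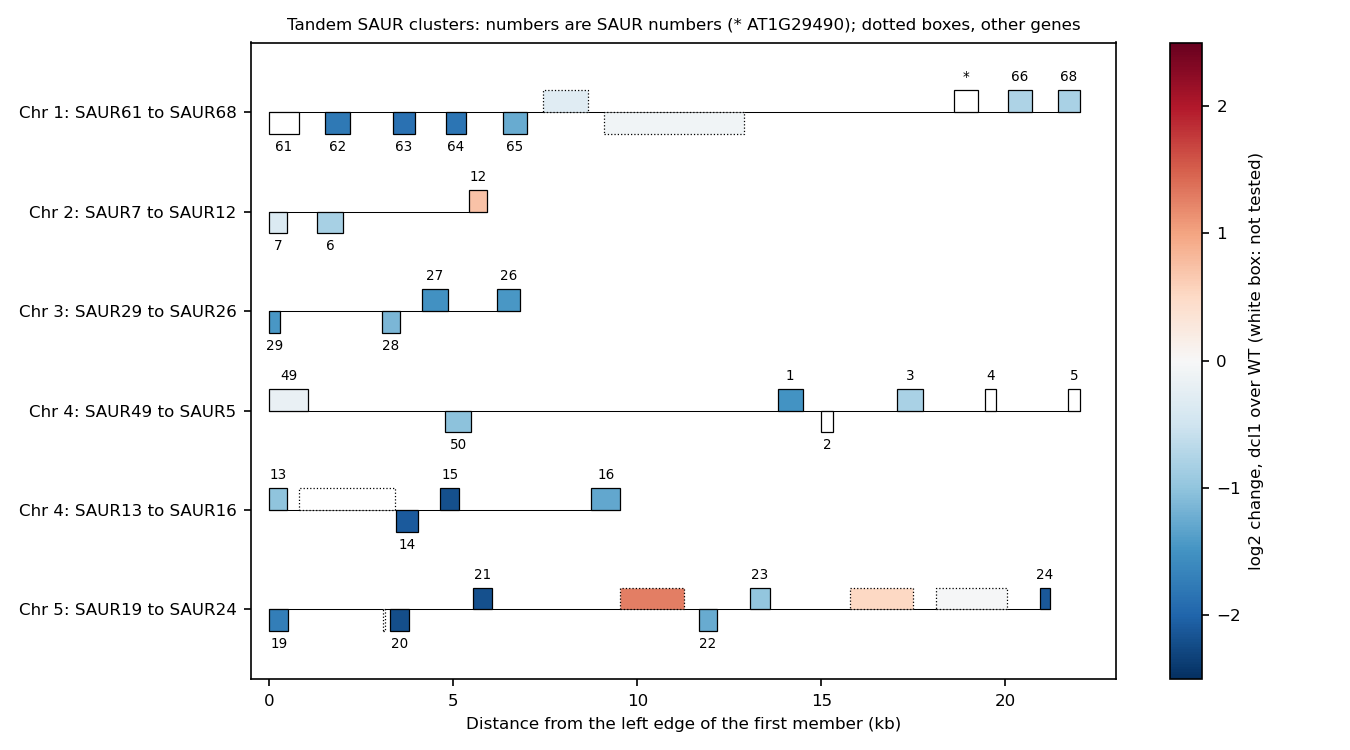
Map of the 6 tandem SAUR clusters, to scale in kb from the left edge of each, with genes of the plus strand above the line and of the minus strand below it. Colour gives the log2 change of dcl1 over WT, and blue (lower in dcl1) fills nearly every tested member, while the dotted boxes of other genes between them are pale, red or white.

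The chromosome 5 cluster (5962897 to 5984112, TAIR10, 21.2 kb) holds SAUR19 to SAUR24, the copies best known for inhibiting PP2C.D phosphatases and enlarging cells. Its members summed to 31.2, 16.1 and 17.9 FPKM in dcl1, against 139.1, 117.6 and 59.3 FPKM in WT, a 4.84-fold lower mean in dcl1 and the strongest fall of the 6 clusters. No dcl1 library reached the lowest WT library, WT replicate 3. SAUR20 had levels of 7.86, 2.80 and 3.77 FPKM in dcl1, against 36.7, 26.7 and 14.7 FPKM in WT. SAUR21 had 7.64, 5.18 and 4.88 FPKM in dcl1, against 41.9, 37.7 and 17.2 FPKM in WT. For both copies the groups were apart, and the log2 changes were -2.22 (SE 0.39, adjusted p = 0.0057) and -2.20 (SE 0.32, adjusted p = 0.0029) in limma.

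SAUR24 had levels of 9.72, 4.40 and 5.51 FPKM in dcl1, against 38.0, 37.6 and 19.4 FPKM in WT (limma, log2 change -2.11, adjusted p = 0.0034). SAUR19, the founding copy of the group, was weak in dcl1 at 0.322, 0.499 and 0.0942 FPKM, against 4.53, 3.48 and 2.24 FPKM in WT. Its ratio of means was 11.2-fold lower in dcl1, although the log2(FPKM + 1) scale, which shrinks changes of low levels, gave a log2 change of -1.74 (limma, SE 0.21, adjusted p = 0.0015). Neither SAUR24 nor SAUR19 had overlapping groups. SAUR23 fell by 0.99 on the log2 scale (limma, adjusted p = 0.030), but this call was lost without any library except WT replicate 3, at adjusted p values between 0.0623 and 0.104. SAUR22 overlapped between groups, with a log2 change of -1.25 that did not pass (limma, adjusted p = 0.061); without dcl1 replicate 1 it passed at 0.038, and without WT replicate 3 at 0.018. In each of the 6 copies WT replicate 3 stood at 0.349 to 0.558 of the mean of the other two WT libraries. These copies are close paralogs, and how reads shared between them were counted is not given in the sources used here, so values of single copies are less certain than their sum.

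Of the 4 other genes that lie between SAUR19 and SAUR24, 3 were tested, and none of these was called lower in limma. AT5G18040 had levels of 32.0, 30.6 and 27.3 FPKM in dcl1, against 11.9, 10.5 and 13.0 FPKM in WT, so every dcl1 library was above every WT library (limma, log2 change 1.28, adjusted p = 2.45e-04). AT5G18065 was also higher in dcl1 (limma, log2 change 0.51, adjusted p = 0.011), DRT101 passed in neither direction at a log2 change of -0.02, and the tRNA gene AT5G18015 was below the minimum level. Across all 6 clusters, 7 other genes lie between members, 5 of them tested, with 1 lower, 2 higher and a median log2 change of -0.02. With 5 genes, these counts cannot be told apart from the shares over all genes tested (12.8% lower, 17.8% higher). The lower one, AT1G29465 on chromosome 1, changed by -0.30 on the log2 scale (limma, adjusted p = 0.048).

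The chromosome 1 cluster (10301152 to 10323189, 22 kb) holds SAUR61 to SAUR65 on the minus strand and AT1G29490, SAUR66 and SAUR68 on the plus strand. SAUR63 and its neighbours promote elongation of hypocotyls and stamen filaments. Together they summed to 29.5, 21.8 and 19.6 FPKM in dcl1, against 93.7, 86.4 and 49.9 FPKM in WT, a 3.24-fold lower mean in dcl1, with no overlap between groups. All 6 tested members were called lower. SAUR63 had levels of 3.93, 3.11 and 2.73 FPKM in dcl1, against 18.2, 16.7 and 9.59 FPKM in WT, so its highest dcl1 library stood well under its lowest WT library (limma, log2 change -1.86, SE 0.23, adjusted p = 0.0014).

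SAUR64 had levels of 3.47, 2.82 and 2.03 FPKM in dcl1, against 16.1, 15.2 and 7.49 FPKM in WT (limma, log2 change -1.84, adjusted p = 0.0032). SAUR62, the member of highest level in WT, had 8.18, 5.22 and 3.69 FPKM in dcl1, against 26.4, 24.8 and 14.8 FPKM in WT (limma, log2 change -1.79, adjusted p = 0.0041). In both, WT replicate 3 was again the lowest WT library and still above all of dcl1. SAUR65 changed less, with 4.40, 2.52 and 2.58 FPKM in dcl1 against 11.0, 9.42 and 6.38 FPKM in WT (limma, log2 change -1.25, adjusted p = 0.0063). The plus-strand copies SAUR66 and SAUR68 had smaller log2 changes of -0.76 and -0.80 (limma, adjusted p = 0.027 and 0.043). For SAUR68 the groups overlapped, with 5.47 FPKM in dcl1 replicate 1 and 5.33 FPKM in WT replicate 3. SAUR66 lost its call without any library except WT replicate 3 (adjusted p 0.0569 to 0.0947), and SAUR68 without dcl1 replicate 2 or 3 or WT replicate 1 or 2 (0.113 to 0.133). AT1G29490 was at 0 FPKM in all libraries except WT replicate 2, which had 0.0371 FPKM. SAUR61 averaged just under the minimum and was not tested, with 0.357, 0.322 and 0.356 FPKM in dcl1 and 1.36, 1.89 and 1.29 FPKM in WT.

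A chromosome 4 cluster (18121526 to 18131060, 9.54 kb) of SAUR13, SAUR14, SAUR15 and SAUR16 holds SAUR16 and SAUR14, the members of highest mean level in WT. SAUR14 and SAUR16 are known as light-induced genes of opening cotyledons, and SAUR15, first named SAUR-AC1, is the classic auxin-induced SAUR of Arabidopsis. All 4 were lower in dcl1, and their sum was 82.2, 53.4 and 50.1 FPKM in dcl1, against 212.0, 218.9 and 169.4 FPKM in WT, a 3.23-fold lower mean in dcl1. SAUR14 had levels of 28.6, 18.0 and 15.2 FPKM in dcl1, against 97.1, 103 and 69.7 FPKM in WT. Its highest dcl1 library was far below its lowest WT library, and its mean was 4.37-fold lower in dcl1 (limma, log2 change -2.10, SE 0.24, adjusted p = 0.0011).

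SAUR15 had levels of 2.81, 1.82 and 1.79 FPKM in dcl1, against 16.0, 15.2 and 9.34 FPKM in WT, a 6.31-fold lower mean in dcl1 (limma, log2 change -2.19, SE 0.21, adjusted p = 5.8e-04). SAUR16 had 50.3, 32.5 and 32.2 FPKM in dcl1, against 95.7, 98.6 and 87.6 FPKM in WT (limma, log2 change -1.30, SE 0.17, adjusted p = 0.0017). The groups were apart for both, and dcl1 replicate 1 was the highest dcl1 library, as it was for 22 of the 30 lower members; over all genes tested this held for 32.3%. SAUR13, whose mean was 0.786 ± 0.297 FPKM in dcl1 and 2.61 ± 0.646 FPKM in WT (SD, n = 3 each), changed by -1.01 on the log2 scale (limma, adjusted p = 0.0063). CRK26, a receptor-like kinase gene between SAUR13 and SAUR14, was under the minimum level and not tested.

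On chromosome 3 (976933 to 983751, 6.82 kb), SAUR29, SAUR28, SAUR27 and SAUR26 stand in a row, a group known for growth in warm temperatures. All 4 were lower in dcl1, and the sums were 12.05, 8.51 and 7.69 FPKM in dcl1, against 37.3, 35.1 and 24.6 FPKM in WT. SAUR27 had levels of 1.29, 1.15 and 1.49 FPKM in dcl1, against 6.67, 6.09 and 4.29 FPKM in WT (limma, log2 change -1.52, SE 0.15, adjusted p = 6.5e-04). SAUR29, the strongest of the row, had 6.56, 5.23 and 4.55 FPKM in dcl1, against 19.0, 17.7 and 13.7 FPKM in WT (limma, log2 change -1.46, SE 0.15, adjusted p = 7.8e-04). In both genes every dcl1 library was below every WT library. SAUR26 and SAUR28 changed by -1.46 and -1.14 on the log2 scale (limma, adjusted p = 0.0084 and 0.0064). SAUR28 averaged 0.543 FPKM in dcl1 and was tested because of its WT level.

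The second chromosome 4 cluster (16577404 to 16599421, 22 kb) was uneven. It runs through SAUR49, SAUR50 and SAUR1 to SAUR5 and summed to 36.0, 31.9 and 28.8 FPKM in dcl1, against 57.2, 62.7 and 65.7 FPKM in WT. SAUR50, a light-induced gene of cotyledon opening, had 24.2, 20.5 and 17.0 FPKM in dcl1, against 40.4, 45.7 and 41.1 FPKM in WT (limma, log2 change -1.02, SE 0.12, adjusted p = 0.0015). SAUR1 had 1.09, 1.14 and 1.23 FPKM in dcl1, against 4.18, 4.47 and 7.01 FPKM in WT, and here WT replicate 3 was the highest library (limma, log2 change -1.50, SE 0.17, adjusted p = 0.0010). SAUR50 and SAUR1 were each apart between the groups. SAUR49, which is linked to leaf senescence, overlapped between the groups with means of 8.48 ± 0.506 FPKM in dcl1 and 9.81 ± 1.92 FPKM in WT (SD, n = 3 each), and its log2 change of -0.18 did not pass (limma, adjusted p = 0.32). SAUR3 changed by -0.81 (limma, adjusted p = 0.020), a call lost without dcl1 replicate 1 (0.0514) or dcl1 replicate 3 (0.0625). SAUR2, SAUR4 and SAUR5 were below the minimum level.

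The chromosome 2 cluster (9083906 to 9089813, 5.91 kb) was the one in which members moved in opposite directions. SAUR6 had levels of 43.2, 29.1 and 29.0 FPKM in dcl1, against 59.5, 64.8 and 56.3 FPKM in WT (limma, log2 change -0.84, SE 0.15, adjusted p = 0.0070). SAUR12, whose start lies 4116 bases further along, had 4.84, 3.77 and 4.83 FPKM in dcl1, against 2.43, 2.64 and 1.81 FPKM in WT (limma, log2 change 0.74, SE 0.13, adjusted p = 0.0067). In neither gene did the groups overlap. SAUR7 overlapped between groups and had a log2 change of -0.35 that did not pass (limma, adjusted p = 0.23); without dcl1 replicate 1 it passed at 0.028.

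**Figure D4:**
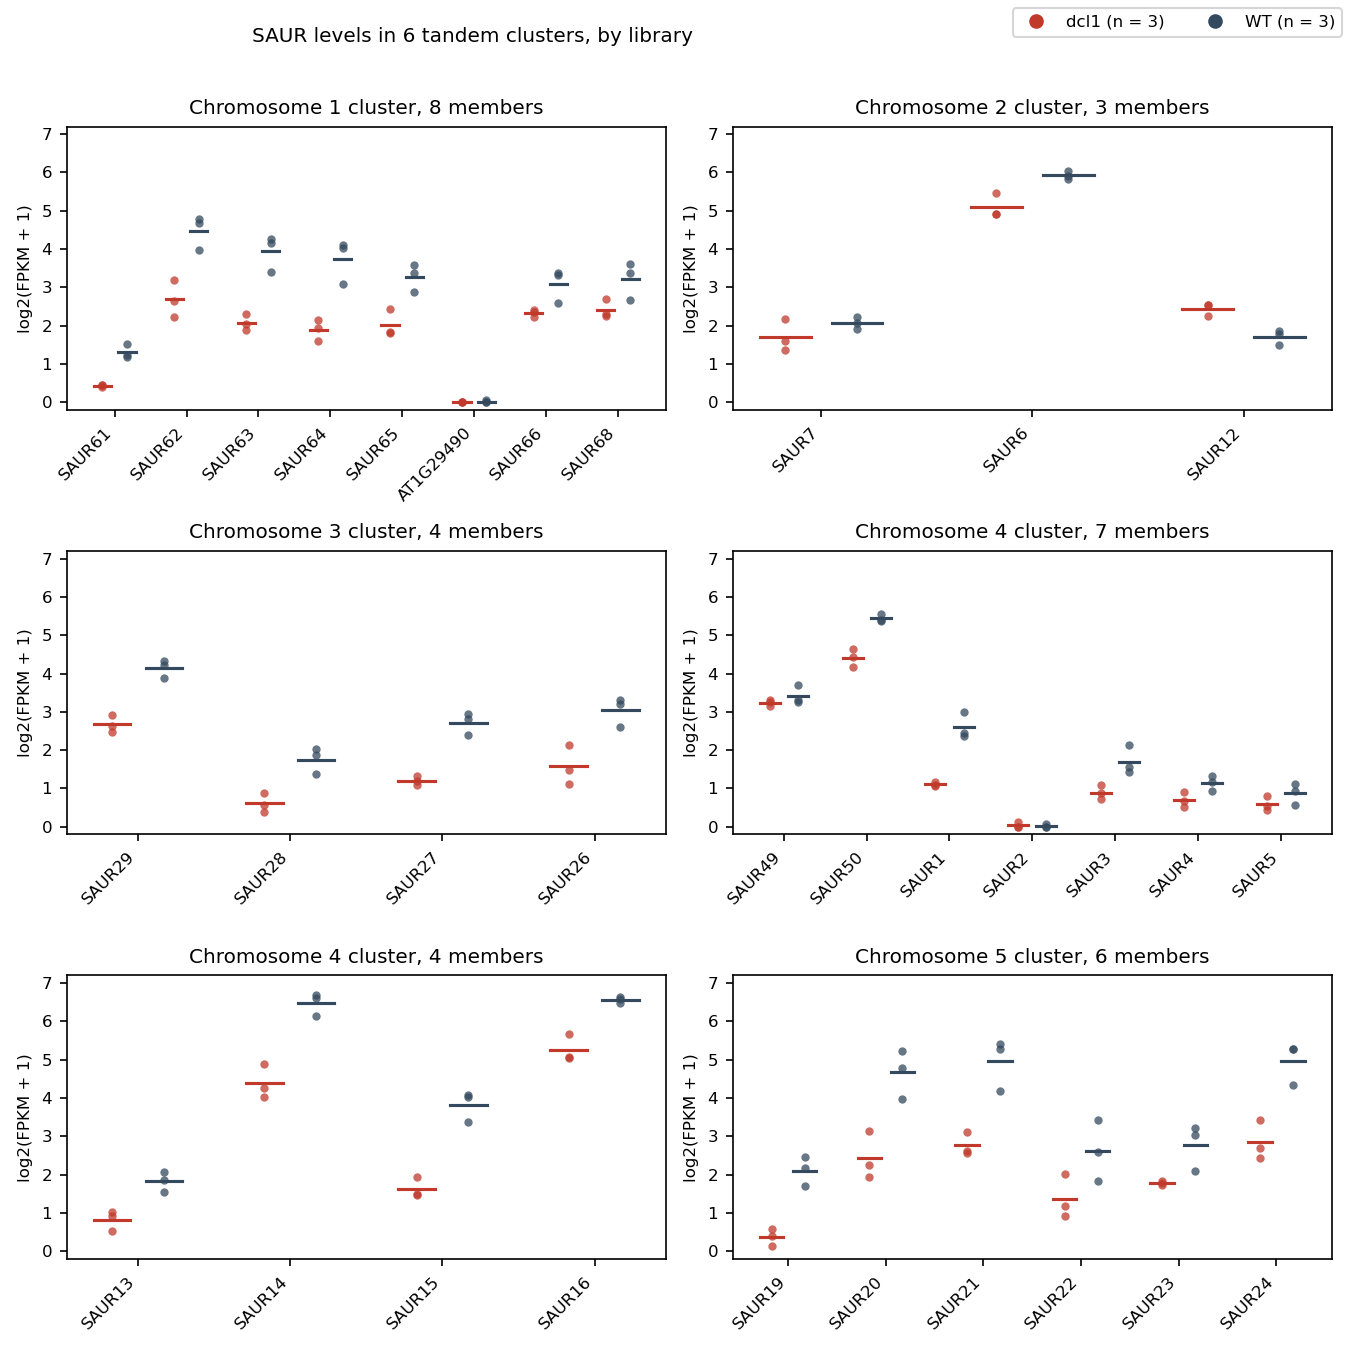
Levels of the 32 cluster members as log2(FPKM + 1), with 1 point per input library, a line at the mean, and dcl1 in red to the left of WT in dark blue. The dcl1 points lie below the WT points for most members, SAUR12 lies the other way round, and AT1G29490 and SAUR2 are near 0 in both genotypes.

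Outside the clusters, 5 members were higher in dcl1. SAUR48 rose most, to 10.8, 16.6 and 11.9 FPKM in dcl1, against 0.526, 2.09 and 2.31 FPKM in WT, and its mean was 7.98-fold that of WT (limma, log2 change 2.48, SE 0.30, adjusted p = 0.0014). SAUR71, a member known from the stomatal lineage, had 14.8, 16.9 and 17.0 FPKM in dcl1, against 4.73, 5.52 and 6.05 FPKM in WT (limma, log2 change 1.42, SE 0.10, adjusted p = 1.8e-04). In both genes every dcl1 library stood well above every WT library. SAUR51 had 15.9, 11.1 and 14.6 FPKM in dcl1, against 8.14, 8.43 and 6.62 FPKM in WT (limma, log2 change 0.76, SE 0.14, adjusted p = 0.0078). SAUR72, close kin of SAUR71, had 11.0, 10.4 and 9.54 FPKM in dcl1, against 5.59, 4.81 and 9.13 FPKM in WT, where WT replicate 3 came close to dcl1. Its log2 change of 0.63 passed (limma, adjusted p = 0.044), but not without any library except WT replicate 3 (0.0787 to 0.132). SAUR59 changed by 0.41 (limma, adjusted p = 0.019), a call lost without dcl1 replicate 1 or 3 or WT replicate 1 or 2 (0.0551 to 0.0685).

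The 7 lower members outside clusters were SAUR34, SAUR9, SAUR76, SAUR53, SAUR52, SAUR54 and SAUR32. SAUR9, another known inhibitor of PP2C.D phosphatases, averaged 1.06 ± 0.232 FPKM in dcl1 and 3.31 ± 0.912 FPKM in WT (SD, n = 3 each), with a log2 change of -1.05 (limma, adjusted p = 0.0052). SAUR34 and SAUR76 changed by -1.14 and -1.02 (limma, adjusted p = 0.0035 and 0.0055), and SAUR53 by -0.73 (limma, adjusted p = 0.0081). These 4 kept their calls with any 1 library left out. SAUR32, which acts in the apical hook, had a level of 17.6 ± 2.22 FPKM in dcl1 and 23.5 ± 1.08 FPKM in WT (SD, n = 3 each) and a log2 change of -0.40 (limma, adjusted p = 0.020). Its call was lost without dcl1 replicate 2 or 3 or WT replicate 1 or 2 (0.0515 to 0.0741), that of SAUR54 without WT replicate 1 (0.0540), and that of SAUR52 without any library except dcl1 replicate 1 (0.0593 to 0.115).

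Of the 5 members with the highest mean level (SAUR14, SAUR16, SAUR78, SAUR6 and SAUR50), SAUR78 was the one that did not pass. SAUR78, which interacts with ethylene signalling, had 45.6, 81.7 and 38.2 FPKM in dcl1, against 47, 54.9 and 70.4 FPKM in WT. The groups overlapped and varied widely, and the log2 change was -0.11 (limma, SE 0.27, adjusted p = 0.78), so neither a rise nor a fall was detectable. SAUR31 was steadier, with 11.9 ± 0.286 FPKM in dcl1 and 11.0 ± 0.227 FPKM in WT (SD, n = 3 each), at a log2 change of 0.10 (limma, SE 0.07, adjusted p = 0.26). The senescence gene SAUR36, SAUR41, SAUR8, SAUR33 and SAUR30 passed in neither direction either. Without WT replicate 3, SAUR36 passed as higher at 0.022, and without dcl1 replicate 2, SAUR30 did at 0.0447. SAUR30 also passed as higher with median-ratio scaling, without the variance trend and with a replicate block. For SAUR31 and SAUR30 every dcl1 library lay above every WT library. SAUR60 had 2.83, 2.74 and 1.44 FPKM in dcl1, against 7.23, 9.22 and 2.31 FPKM in WT, where WT replicate 3 fell within the dcl1 range. Its log2 change of -1.0 did not pass (limma, adjusted p = 0.10), and without WT replicate 3 it was -1.49 and passed at 0.0040. WT replicate 3 was the lowest WT library for 21 of the 30 lower members; over all genes tested this held for 21.5%.

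The 25 members that were not tested were close to silent, with means between 0.00619 and 0.930 FPKM and no single library above 1.89 FPKM. Of these, 13 were at 0 FPKM in at least 1 library and 7 in at least 4 libraries. The nearest to the minimum were SAUR61 (0.930 FPKM over the 6 libraries), SAUR4 (0.928 FPKM) and SAUR5 (0.687 FPKM), while SAUR36 (1.47 FPKM), SAUR28 (1.49 FPKM) and SAUR3 (1.60 FPKM) were just above it. Among the 25, the groups did not overlap for SAUR61 and SAUR4, both lower in dcl1, and overlapped for the other 23.

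In the authors' deposited table of expression changes, 26 members were marked as significantly lower in dcl1 and 2 as significantly higher. Of the 26, 23 were also among the 30 called lower here. The other 3 were SAUR60 and SAUR22, which did not pass here, and SAUR61, which was not tested. The 2 higher members, SAUR48 and SAUR71, were called higher here too. All members marked by the authors had log2 changes beyond -1 or 1 in their table. SAUR6, at -0.83 with a q-value of 1.15e-06 there, was not marked. The calls here set no minimum change, so the 2 sets of counts rest on unlike thresholds.

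Transcripts of the family had almost no place in the m6A comparison. In the authors' deposited table of 3117 differential m6A peaks, 3 were assigned to members (SAUR77, SAUR65 and SAUR46). Of the 47 members tested for expression, 1 (SAUR65) had an assigned peak, whereas 13.9% of all genes tested for expression had one. Members are shorter than most genes (median locus 622 against 2036 bases), and the part of length or level in these shares was not tested. None of the 3 peaks overlaps a member. The peak given to SAUR77 (chromosome 1, 5938342 to 5938761) lies 1662 bases before its start, inside AT1G17340, a phosphoinositide phosphatase gene on the same strand, and is annotated as 3' UTR. The authors' deposited table gives it a log2 change of -0.37 in dcl1 over WT (FDR 6.61e-04). The peak given to SAUR65 (chromosome 1, 10310244 to 10310394) lies 2101 bases before it, in AT1G29470, the methyltransferase gene inside the SAUR cluster, with a log2 change of 0.37 (FDR 3.47e-05) in the authors' deposited table. The peak given to SAUR46 (chromosome 2, 15551897 to 15552105) lies 1627 bases before it, in TRFL8, with a log2 change of 0.89 (FDR 0.0234) in the authors' deposited table. The 3 peaks thus sit on neighbours, and none of these neighbours passed the expression test, with log2 changes of 0.10, -0.08 and -0.27. Only peaks that differed are in that table, so it does not show whether SAUR transcripts carry m6A.

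Genes around the SAURs in auxin-driven growth were followed as 6 lists with 51 genes, of which 40 were tested. Of the 40, 7 were higher in dcl1, 10 were lower and 23 passed in neither direction, beside 17.8% and 12.8% of all genes tested. With any 1 library left out the calls numbered between 11 and 20 in place of 17, with 11 without dcl1 replicate 3 or WT replicate 1. In the auxin synthesis list, 5 of 6 tested genes were called lower in dcl1. Of these 5, 4 averaged under 1 FPKM in dcl1 and were tested because of their WT level, so the count leans towards genes lower in dcl1; of the 2 tested genes averaging at least 1 FPKM in dcl1, 1 was lower. All 5 were YUCCA flavin monooxygenases, which make auxin from the product of TAA1. YUC8 had levels of 0.189, 0.264 and 0.237 FPKM in dcl1, against 3.45, 3.49 and 2.74 FPKM in WT, a 14.0-fold lower mean in dcl1 with no overlap (limma, log2 change -1.78, SE 0.12, adjusted p = 1.27e-04). YUC9 had 0.129, 0.0744 and 0 FPKM in dcl1, against 11.2, 8.19 and 1.54 FPKM in WT, again with WT replicate 3 lowest (limma, log2 change -2.62, SE 0.52, adjusted p = 0.0096). YUC5, YUC2 and YUC6 changed by -0.76, -0.62 and -0.46 (limma, adjusted p = 0.033, 0.019 and 0.017). YUC5 lost its call without dcl1 replicate 1 or 3 or WT replicate 1 or 2 (0.0609 to 0.108), and YUC2 without dcl1 replicate 2 or 3 or WT replicate 1 or 2 (0.05004 to 0.0677). TAA1, the enzyme before them, passed in neither direction.

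No TIR1/AFB auxin receptor and no activating ARF was called lower in limma, beside 12.8% of all genes tested. Of the 6 TIR1/AFB auxin receptors, TIR1 alone passed, with 30.8, 30.8 and 29.8 FPKM in dcl1 against 24.7, 24.2 and 27.7 FPKM in WT (limma, log2 change 0.25, adjusted p = 0.038). That call was lost without any library except WT replicate 3 (0.0677 to 0.123), and with quantile normalization (0.0931). Of the 5 activating ARFs, 3 were higher in dcl1, beside 17.8% of all genes tested. ARF7 changed by -0.23 and did not pass (limma, adjusted p = 0.091). It passed as lower with quantile normalization (0.012), with median-ratio scaling (0.034) and without WT replicate 2 (0.045). ARF8, a target of miR167, had 25.4, 27.3 and 24.7 FPKM in dcl1, against 17.6, 16.8 and 17.5 FPKM in WT, with no overlap (limma, log2 change 0.55, SE 0.07, adjusted p = 0.0016). ARF5 changed by 0.43 (limma, adjusted p = 0.016), and ARF6, the other miR167 target, by 0.40 (limma, adjusted p = 0.034), a call lost without dcl1 replicate 2 or 3 or WT replicate 1 or 2 (0.0544 to 0.104) and with quantile normalization (0.0622). Among 8 PIF and BZR growth factors, BZR1 was higher, with 11.6, 12.2 and 11.1 FPKM in dcl1 against 7.68, 7.72 and 8.35 FPKM in WT (limma, log2 change 0.50, adjusted p = 0.0030). HBI1 was lower, with 21.7, 16.8 and 22.3 FPKM in dcl1 against 29.3, 28.6 and 48.3 FPKM in WT (limma, log2 change -0.74, adjusted p = 0.032), a call lost without dcl1 replicate 1, 2 or 3 in turn (0.0557 to 0.0908). PIF1, PIF4 and PIF5 did not pass, but did as higher without WT replicate 3 (0.0033, 0.016 and 0.0039), and PIF5 also with median-ratio scaling (0.0492).

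**Figure D5:**
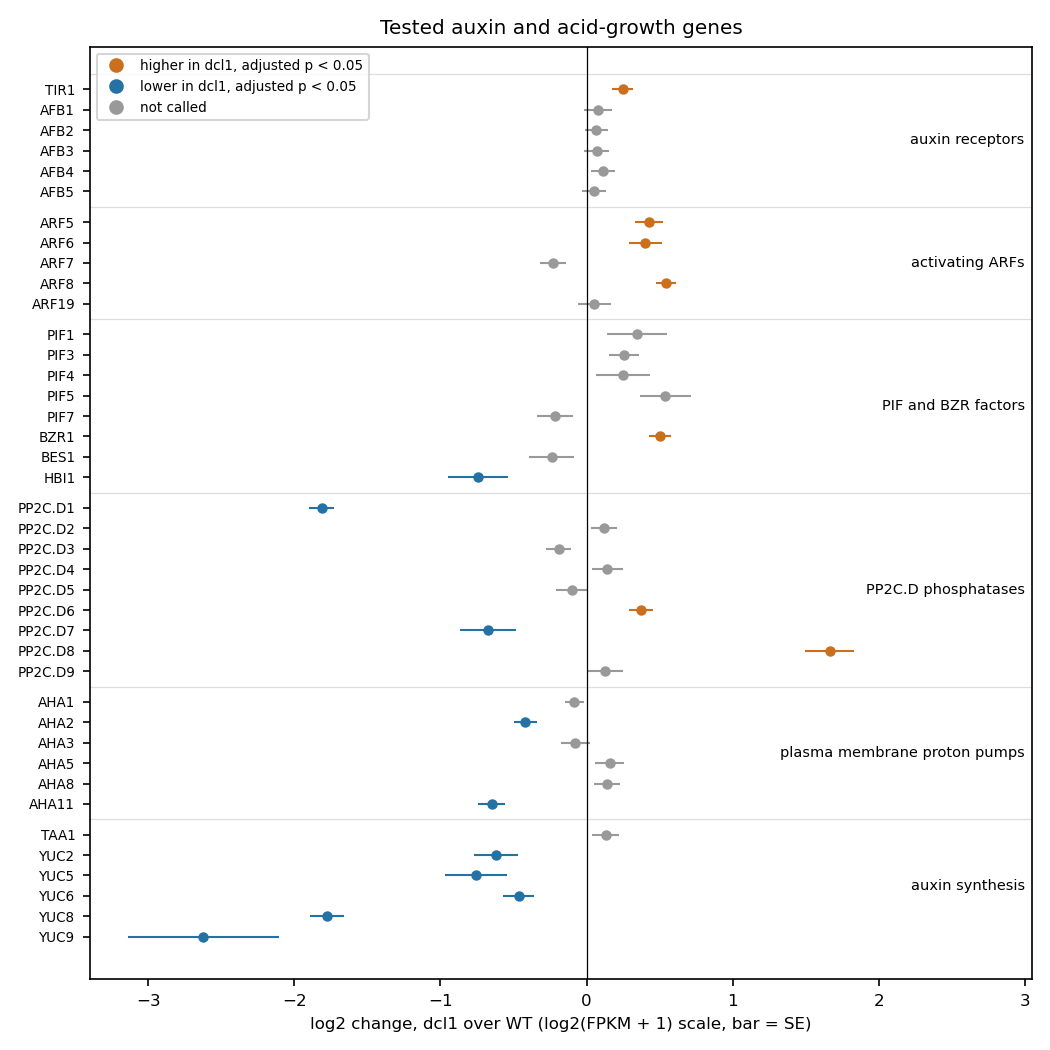
Log2 change of dcl1 over WT, on the log2(FPKM + 1) scale with bars of 1 SE, for the 40 tested genes of the 6 lists of auxin synthesis, auxin perception, growth factors, phosphatases and pumps. YUC9 (-2.62), PP2C.D1 (-1.81) and YUC8 (-1.78) lie furthest to the lower side and PP2C.D8 (1.66) furthest to the higher side.

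The PP2C.D phosphatases include targets of SAUR19 and its relatives. Of the 9 genes, 2 were lower and 2 higher in dcl1, beside 12.8% and 17.8% of all genes tested. So few genes do not set the list apart from that background. PP2C.D1 had levels of 3.25, 3.40 and 3.44 FPKM in dcl1, against 13.7, 13.5 and 15.9 FPKM in WT, a 4.28-fold lower mean in dcl1 (limma, log2 change -1.81, SE 0.09, adjusted p = 3.3e-05). PP2C.D8 moved the other way, with 30.4, 44.0 and 47.6 FPKM in dcl1 against 10.8, 11.5 and 13.6 FPKM in WT (limma, log2 change 1.66, SE 0.17, adjusted p = 7.0e-04). In both genes the groups were far apart. PP2C.D7 changed by -0.67 (limma, adjusted p = 0.036; lost without any library except WT replicate 3, 0.0524 to 0.116) and PP2C.D6 by 0.37 (limma, adjusted p = 0.016; lost without dcl1 replicate 1 or WT replicate 1 or 2, 0.0504 to 0.0580). PP2C.D3 did not pass, but did as lower with quantile normalization (0.018) and median-ratio scaling (0.047). Of the 6 tested proton pump genes, the acid-growth pump AHA2 had 40.0, 34.3 and 37.6 FPKM in dcl1, against 51.1, 52.4 and 47.2 FPKM in WT (limma, log2 change -0.42, adjusted p = 0.0078). AHA11 had 19.6, 19.8 and 18.0 FPKM in dcl1, against 32.0, 33.0 and 27.2 FPKM in WT (limma, log2 change -0.65, adjusted p = 0.0023). Both pumps were lower in every dcl1 library than in any WT library, and the other 4 did not pass.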

How the data were processed

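Input RNA-seq of 3 dcl1 and 3 WT libraries was compared. Per the file headers, the authors deposited FPKM per gene, a table of their expression changes (fold ratio, log2, p-value and q-value) and a table of differential m6A peaks (log2 change, p-value and a score column for the log10 FDR). Per the submitters' processing notes, the TAIR10 build and the tools edgeR, ChIPseeker, HOMER, StringTie, HISAT2 and fastp are listed without versions or roles. Whether counting followed the strand is not given in the sources used here.

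limma 3.58.1 in R 4.3.3 (eBayes with trend, two-sided) was fitted to log2(FPKM + 1), without blocking, for genes averaging 1 FPKM or more over 6 libraries, with Benjamini-Hochberg adjustment over all of them and a threshold of 0.05. Fold changes on this scale understate those of low genes. The script was tested on simulated data with changes placed only in genes above about 5 FPKM. Recovery of changes at lower levels was thus not tested, and 24 of the 47 tested members averaged at least 5 FPKM. The members and gene lists were chosen with earlier results of these data known. Named genes were DCL1, up to 12 rises and 12 falls among called members, the 5 highest members, the 3 highest untested members, members with peaks, and each list's 2 largest rises and falls; others were named after their values were seen. RefSeq names (assembly TAIR10.1) matched 23755 of 24730 loci. Coordinates are 1-based, as deposited.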

Additional observations from a re-analysis of the deposited data

How the results depend on the processing

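The alternatives were pseudocounts of 0.1 and 5 FPKM, no minimum level or one of 5 FPKM, quantile and median-ratio scaling, no variance trend, a replicate block and each library left out. The count of SAUR members lower in dcl1 (30) became 16 with a minimum of 5 FPKM, which tests 24 members, and ranged between 24 and 31 with a library left out; with no minimum it was 27, where SAUR23, SAUR52, SAUR66 and SAUR68 lost their calls and SAUR61 gained one. Members called higher (6) ranged between 4 and 7. Calls over all genes (5480) ranged between 3209 and 5662 with a library left out. Auxin pathway calls (17) became 11 with a minimum of 5 FPKM, fewer genes being tested, and ranged between 11 and 20 with a library left out. The log2 change of SAUR78, never called, turned to 0.11 without dcl1 replicate 3 and 0.04 without WT replicate 3, and was -0.43 without dcl1 replicate 2. With no minimum, calls were also lost for SAUR72 (0.0766), ARF6 (0.0530), HBI1 (0.0578), PP2C.D7 (0.0582), YUC5 (0.0510), CAB1 (0.157) and CAB3 (0.0880), and without the variance trend for SAUR72 (0.05006) and TIR1 (0.0506). Of all alternatives for 37 named genes, 475 kept direction and call, 33 lost the call and 2 reversed. The median log2 change of all genes was -0.06 with quantile and 0.00 with median-ratio scaling, and that of the members -1.08 and -1.02.

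Samples of both genotypes share replicate numbers, but the labels tie no pair together. Over all genes tested, deviations of same-numbered samples correlated at 0.0850, 0.0608 and 0.150. This was not computed for the SAUR members alone. A replicate block changed the SE of single members in both directions, from 0.39 to 0.21 for SAUR20 and from 0.13 to 0.14 for SAUR12. With the replicate block, 5138 genes, 31 lower and 6 higher members and 16 pathway genes were called. SAUR52, SAUR72, TIR1 and CAB3 lost their calls, and SAUR22, SAUR60 and SAUR30 gained one. Replicate 1 of dcl1 correlated best with replicate 2 of WT (0.116). Restricting to members that overlap no other gene left 30 lower and 6 higher. This alternative was chosen after seeing the data. The 4 tested members that it removed (SAUR60, SAUR8, SAUR7 and SAUR30) had not been called, so it could not change either count. Clusters of starts at most 10 kb or 50 kb apart held the same number of members (32), in 7 and 6 clusters. Adding a gene to which RefSeq gives a SAUR symbol changed neither member count. The planned search of promoter motifs was not run, since no promoter sequences were used here. Depth is unknown in FPKM, so no limit of detection is given for members near 0.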
